A study of Homo sapiens with 6 samples.

Results

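The family of miR-28, miR-151a, miR-151b and miR-708 comprises 7 mature miRs of human cells whose hairpins derive from LINE2, an old class of retrotransposon. Rows of the count table were taken where the miR name equalled that of a member: hsa-miR-28-5p, hsa-miR-28-3p, hsa-miR-151a-5p, hsa-miR-151a-3p, hsa-miR-151b, hsa-miR-708-5p and hsa-miR-708-3p. All 7 were found among the 2588 names of the table, and each had reads. The libraries came from HEK293T, a human embryonic kidney cell line, and were made from small RNA of 3 samples with RPL24 knocked down (RPL24 KD) and 3 samples given non-targeting siPOOLs (NC). The siPOOLs, which are mixtures of many siRNAs each at low concentration, were used at 50 nM (the labels name ON-TARGETplus siRNA for the control), and cells of both groups were harvested 72 h later. The protocol in the labels also gives both groups a miR-608 plasmid, 48 h after the siPOOLs and 24 h before harvest. Whether the sequenced cells received it is not clear from the sources used here, and all 6 libraries list miR-608 at 0 counts. A knock-down by siPOOLs lowers the transcript of RPL24, a protein of the large ribosomal subunit, but does not remove it. The count table holds miRs and no mRNA, so neither the loss of RPL24 nor the identity of the cell line was checked here. The labels do not say that the samples of a group were separate cultures, and p-values thus measure the spread between these samples only.

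A miR is cut from a hairpin of its primary transcript, first by Drosha with its partners in the microprocessor and then by Dicer, which leaves a duplex of a 5p and a 3p arm. Usually 1 arm is loaded into Argonaute and guides it to mRNAs, through pairing of the seed, while the other arm is mostly degraded. In this family, neighbouring LINE2 copies in opposite orientation gave an inverted repeat that folds into the hairpin, and pieces of LINE2 in the 3′ ends of mRNAs can serve as target sites. MiR-28-5p and miR-708-5p are commonly grouped as 1 seed family. Among described targets are the metastasis suppressor NME1 for miR-28-3p and neuronatin for miR-708-5p. The comparison of RPL24 KD with NC asked whether depletion of RPL24 changes the level of mature miRs.

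Mature sequences of 3 of the 7 members were read by name from RefSeq on GRCh38.p14. The search did not assess whether RefSeq holds each of the other members. They are shown for the likeness of miR-28-3p and miR-708-3p, and miR-708-5p for its seed. Each is written 5′ to 3′, with the seed, bases 2 to 8, in capitals.
hsa-miR-28-3p: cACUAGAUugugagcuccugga
hsa-miR-708-3p: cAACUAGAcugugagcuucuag
hsa-miR-708-5p: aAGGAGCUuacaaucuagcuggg
The 3p arms of miR-28 and miR-708, each 22 bases long, aligned with 18 identical bases, 3 mismatches and 2 gap bases. Their longest common run is UGUGAGCU, 8 bases from position 9 of miR-28-3p and from position 10 of miR-708-3p. Their seeds are offset by a base and share a run of 6 bases, ACUAGA, so that they are not the same seed. Among the mature miRs read from RefSeq, which did not include every member, 0 others had the seed of miR-28-3p and 0 that of miR-708-3p. Of the names with a sequence there, 1 other had the seed of miR-708-5p, hsa-miR-3139, with from 0 to 5 counts in the 6 libraries.

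In the GENCODE 29 annotation of GRCh38, each hairpin gene of the family lies in an intron of a protein-coding gene and overlaps an exon in 0 of its transcripts. MIR28 is on chromosome 3, from 188688781 to 188688866 of the plus strand, in LPP, which encodes a focal adhesion protein. It is intronic in 6 LPP transcripts, 4 of which have it in intron 6. MIR708 lies on the minus strand of chromosome 11, from 79402022 to 79402109, in intron 1 of 3 transcripts of TENM4, which encodes a teneurin. MIR151B lies on the minus strand of chromosome 14, from 100109419 to 100109514, within EVL, which encodes a regulator of actin filaments and is transcribed from the plus strand. The hairpin MIR342 lies in the same EVL introns, on the plus strand and 140 bases away. MIR151A lies on the minus strand of chromosome 8, from 140732564 to 140732653, in PTK2, which encodes focal adhesion kinase. It is intronic in 16 PTK2 transcripts and in intron 22 of 6 of them.

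The libraries held from 398721 to 611745 counts. Levels are given as CPM, the count of a miR scaled to a common library size after TMM normalization. In that unit 3 counts, the least that was read as detection here, correspond to between 4.98 and 7.50 CPM. PCR duplicates were not removed by molecular identifiers, and the floor accounts for nothing but counting error. The family took 1.44% ± 0.0271 (SD, n = 3) of all counts in RPL24 KD libraries, against 1.53% ± 0.100 (SD, n = 3) with NC. MiR-151a-3p alone made up 87.8% ± 0.173 (SD, n = 3) of the family's counts in RPL24 KD libraries, against 88.0% ± 1.17 (SD, n = 3) with NC.

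In mean level miR-151a-3p stood first, with 13070.1 CPM over the 6 libraries, number 19 of the miRs in the table. It was followed by miR-28-3p (875 CPM, number 85), miR-708-5p (451 CPM, number 113), miR-151a-5p (173 CPM, number 171), miR-28-5p (151.4 CPM, number 186), miR-708-3p (130.4 CPM, number 199) and miR-151b (16.4 CPM, number 373). MiR-151a-3p was 14.9 times as high as miR-28-3p, miR-28-3p 1.94 times as high as miR-708-5p and miR-708-5p 2.60 times as high as miR-151a-5p. These steps held in 6 of 6 libraries with no overlap. MiR-151a-5p and miR-28-5p overlapped, as did miR-28-5p and miR-708-3p, and each of these neighbours kept its order in 5 of 6 libraries. These ratios between miRs are ratios of reads, on which adapter ligation and amplification also act.

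**Figure D1:**
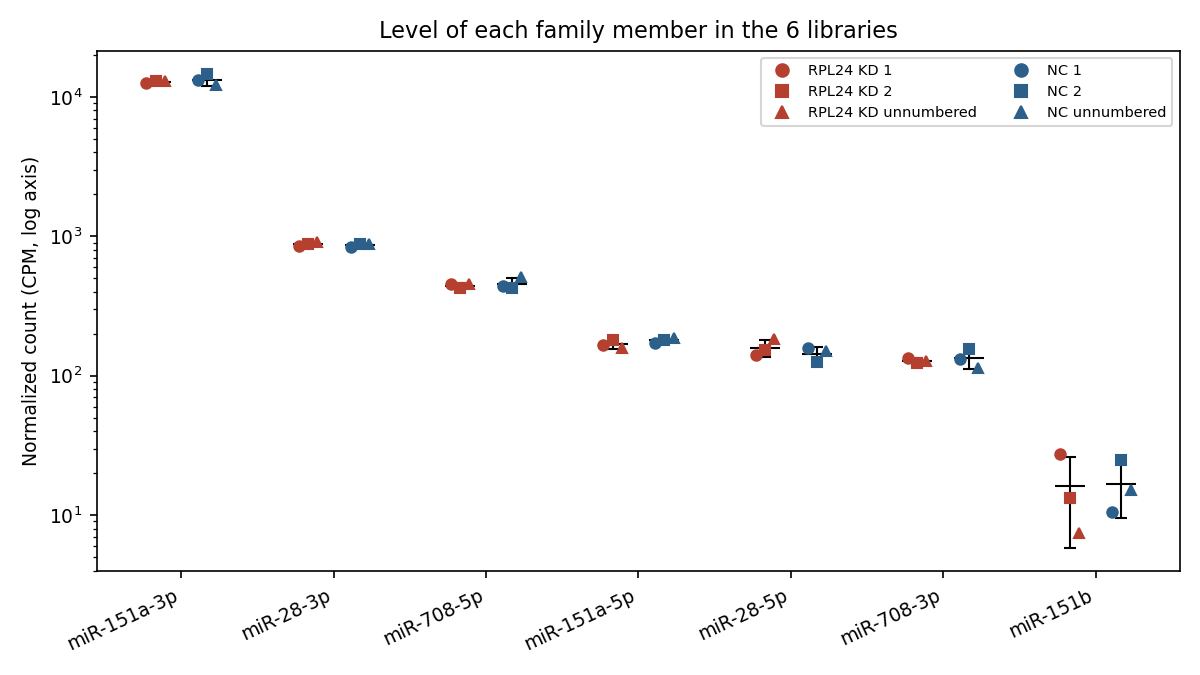
Normalized counts (CPM, log axis) of the 7 family members in the 3 RPL24 KD and 3 NC libraries. Points are libraries, horizontal bars are group means and error bars are SD; miR-151a-3p lies near 13070.1 CPM, miR-151b near 16.4 CPM, and the groups overlap for each member.

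None of the members changed detectably after RPL24 KD. Of the 7 members, 6 passed the filter on low counts and were tested with the other miRs, 360 in all. A miR was called differentially expressed (DE) where its Benjamini-Hochberg adjusted p from the quasi-likelihood test of edgeR was under 0.05. Of the 6 members 0 were DE, against 18 of the 360 tested miRs (5.00%), and at such a background little can be read from a count of 0 in 6. Of all tested miRs 3.33% were higher and 1.67% lower at that threshold. At an unadjusted p under 0.05 there were 0 of the 6 members, against 23.6% of all tested miRs. The groups overlapped in each of the 6, while they did not overlap for 27.5% of the tested miRs. Little can be read from these counts of 0 in 6 either, since the 6 are arms of shared hairpins. The same count of 0 DE members was given by DESeq2 and by limma-voom. The median log2 fold change of the 6 members was -0.04, that of the 360 tested miRs -0.01, and the median absolute log2 fold change was 0.05 for the members and 0.16 for all. The 360 tested miRs reach lower levels than the 6 members, which this contrast does not take into account. The seventh member, miR-151b, had too few counts for the test.

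**Figure D2:**
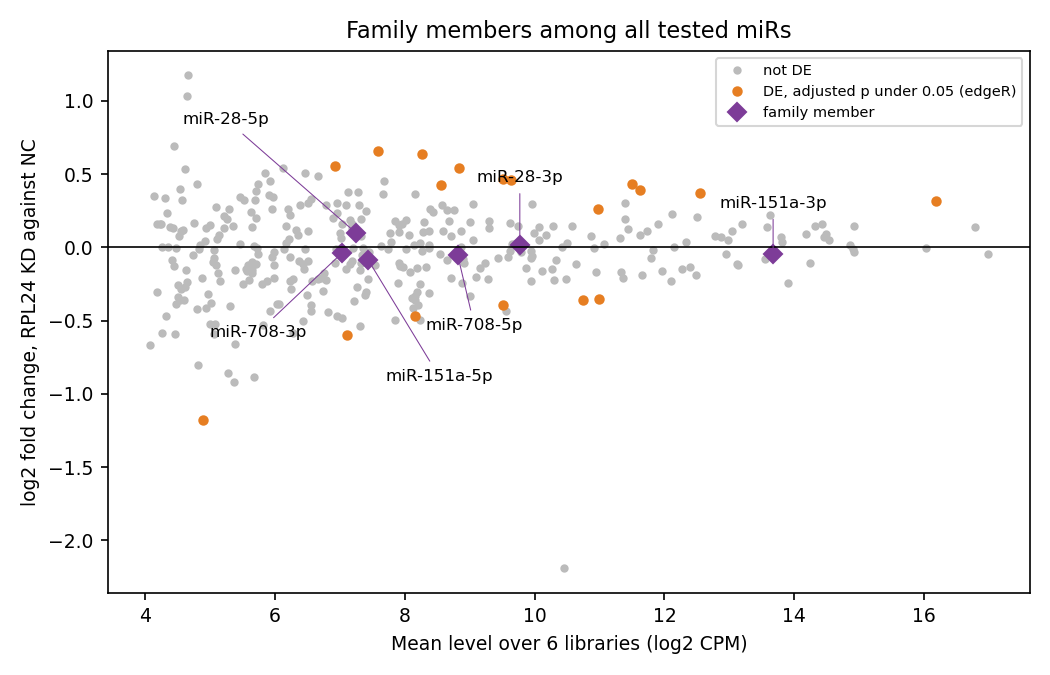
Log2 fold change (RPL24 KD minus NC) by mean level (log2 CPM) for the 360 tested miRs. Orange points are the 18 DE miRs and purple diamonds the 6 tested family members, whose log2 fold changes lie between -0.09 and 0.10.

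MiR-151a-3p, the dominant member, had 12609.9, 12956 and 13042 CPM in RPL24 KD libraries 1, 2 and the unnumbered one. NC libraries 1, 2 and the unnumbered one, which no label pairs with those of RPL24 KD, had 13142, 14518 and 12152 CPM. The highest and the lowest of the 6 values were thus both in NC, and the RPL24 KD libraries lay between them. The RPL24 KD mean was 12869 ± 229 CPM (SD, n = 3) and the NC mean 13271 ± 1188 CPM (SD, n = 3), for a log2 fold change of -0.04 (SE 0.0658, adjusted p = 0.745, edgeR). Its 95% interval ran from -0.19 to 0.10, that is from 0.880-fold to 1.07-fold, the narrowest of the family. Without NC replicate 2 the log2 fold change was 0.02 (adjusted p = 0.817, edgeR), and without the unnumbered NC library it was -0.11 (adjusted p = 0.188, edgeR).

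MiR-151a-5p, the other arm of the same hairpin, had 166, 179 and 157 CPM in the RPL24 KD libraries, in the same order of libraries. NC libraries had 171, 179.5 and 187 CPM. NC values reached higher and RPL24 KD values lower, with an overlap. The log2 fold change was -0.09 (SE 0.129, adjusted p = 0.745, edgeR), with a 95% interval from -0.36 to 0.19. MiR-151b had 15, 8 and 3 counts in the RPL24 KD libraries and 6, 10 and 8 counts in NC. At these counts, near the floor of 3, a difference was not detectable. The RPL24 KD mean was 16.0 ± 10.2 CPM (SD, n = 3) and the NC mean 16.8 ± 7.38 CPM (SD, n = 3). The sequence of miR-151b is contained in that of miR-151a-5p, and how the counting divided reads that match both is not stated in the sources used here, so the levels of these names are uncertain. MiR-151b had between 6.07 and 21 times fewer counts than miR-151a-5p in a library. The log2 ratio of the 2 names differed by -0.08 between RPL24 KD and NC (exact two-sided permutation p = 0.9). With the counts of miR-151b added to miR-151a-5p, the log2 fold change of the sum was -0.08 (adjusted p = 0.764, edgeR).

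MiR-28-3p, the more abundant arm of miR-28, was among the steadiest members. It had 849.9, 881 and 909 CPM in the RPL24 KD libraries and 843, 880.1 and 885 CPM in NC. The 2 sets of values interleaved, and the coefficient of variation was 3.39% after RPL24 KD and 2.66% in NC. The log2 fold change was 0.02 (SE 0.0815, adjusted p = 0.928, edgeR), with a 95% interval from -0.16 to 0.19. MiR-28-5p had 140.4, 153 and 182 CPM in the RPL24 KD libraries and 159, 125 and 149 CPM in NC. The unnumbered RPL24 KD library held the highest value and NC 2 the lowest. The log2 fold change of 0.10 (SE 0.152, adjusted p = 0.745, edgeR) had a 95% interval from -0.22 to 0.43, that is from 0.856-fold to 1.34-fold. It was 0.0027 without the unnumbered RPL24 KD library, 0.02 without NC replicate 2, 0.18 without RPL24 KD replicate 1 and 0.17 without NC replicate 1.

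MiR-708-5p had 452, 423 and 455 CPM in the RPL24 KD libraries and 438, 426 and 511 CPM in NC. The unnumbered NC library held the highest value and the other 5 libraries lay close together. The log2 fold change was -0.05 (SE 0.104, adjusted p = 0.789, edgeR), with a 95% interval from -0.28 to 0.17. MiR-708-3p had 133, 123 and 127 CPM in the RPL24 KD libraries and 131, 155 and 113 CPM in NC. Here the unnumbered NC library was the lowest and NC 2 the highest. The log2 fold change was -0.04 (SE 0.154, adjusted p = 0.9, edgeR), with a 95% interval from -0.37 to 0.29. The 5p seed family of miR-28-5p and miR-708-5p summed to 602 ± 31.6 CPM (SD, n = 3) in RPL24 KD libraries, against 603 ± 54.7 CPM (SD, n = 3) with NC.

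Over the 6 tested members the 95% intervals of the edgeR fit lay within -0.37 and 0.43 on the log2 scale, that is between 0.773-fold and 1.34-fold. Each interval included 0. The NC libraries varied more than the RPL24 KD libraries for 3 of the 6 members (miR-151a-3p, miR-708-5p and miR-708-3p) and for 215 of the 360 tested miRs.

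**Figure D3:**
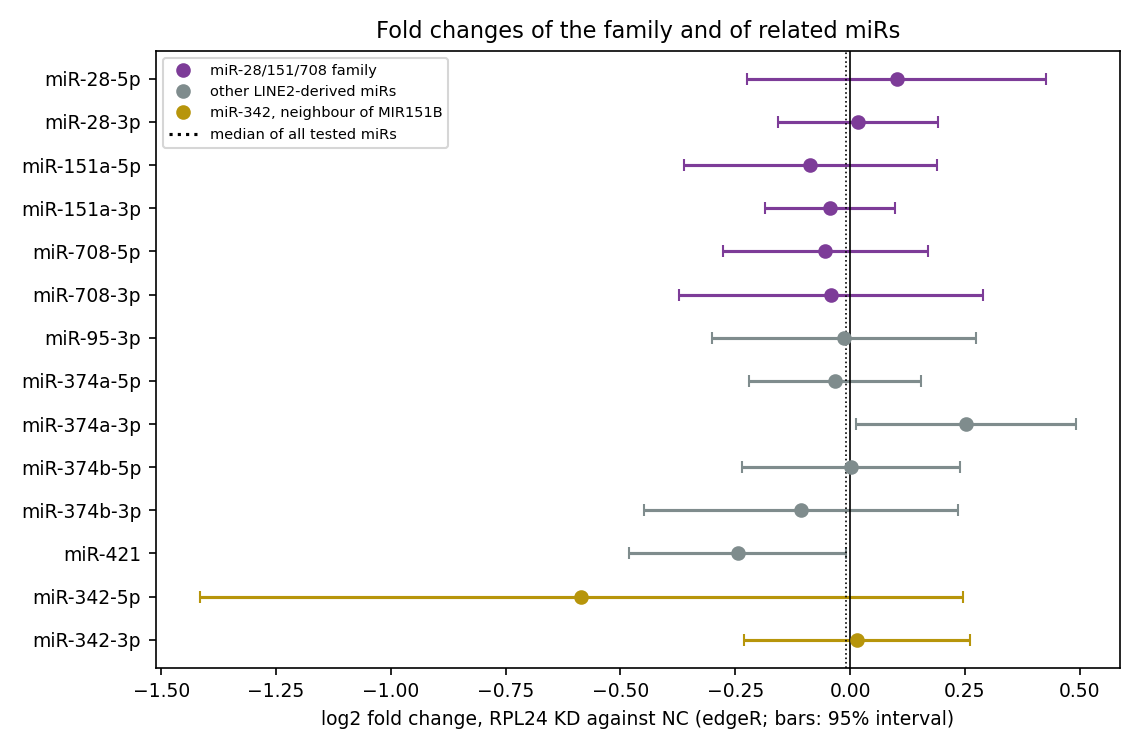
Log2 fold change (RPL24 KD minus NC, edgeR) with its 95% interval for the 6 tested family members, 6 other LINE2-derived miRs and the 2 arms of miR-342. The dotted line is the median of all tested miRs, -0.01; each of the 6 family intervals includes 0.

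The arms of the 3 hairpins with both arms counted were used unequally. The ratio of the arms is read within a library and needs no scaling between libraries. In miR-151a the 3p arm exceeded the 5p arm by 76.0, 72.3 and 82.9 times in the RPL24 KD libraries and by 76.9, 80.9 and 64.9 times in NC. In miR-28 the 3p arm also prevailed, by 6.05, 5.77 and 4.99 times after RPL24 KD and by 5.31, 7.06 and 5.92 times in NC. In miR-708 the 5p arm prevailed instead, by 3.40, 3.45 and 3.57 times after RPL24 KD and by 3.35, 2.76 and 4.5 times in NC. The direction of each ratio held in 6 of 6 libraries. Of the 74 hairpins with both arms tested, 37 had more counts of the 5p arm and 37 of the 3p arm, and the median absolute log2 ratio was 3.38. By the absolute ratio miR-151a was number 13, miR-28 number 49 and miR-708 number 56 of these hairpins. Since miR-151a-5p shares its sequence with miR-151b, its ratio is as uncertain as its count. With the counts of miR-151b added to the 5p arm, the 3p arm prevailed by 68.9 times on average.

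The arm ratios did not differ detectably between RPL24 KD and NC. The log2 ratio of 5p to 3p of miR-28 was -2.48 ± 0.146 (SD, n = 3) in RPL24 KD libraries, against -2.60 ± 0.208 (SD, n = 3) with NC, a difference of 0.12 (exact two-sided permutation p = 0.5). That of miR-151a was -6.27 ± 0.0996 (SD, n = 3) and -6.21 ± 0.166 (SD, n = 3), a difference of -0.06 (exact two-sided permutation p = 0.7). That of miR-708 was 1.79 ± 0.0365 (SD, n = 3) and 1.79 ± 0.356 (SD, n = 3), a difference of 0.0028 (exact two-sided permutation p = 1). After Benjamini-Hochberg adjustment over the 3 hairpins each exact permutation p was 1, and 3 libraries against 3 cannot give less than 0.1. The groups overlapped for each hairpin. The median absolute difference over the 74 hairpins was 0.15, and by this measure miR-28 was number 44, miR-151a number 59 and miR-708 number 72.

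**Figure D4:**
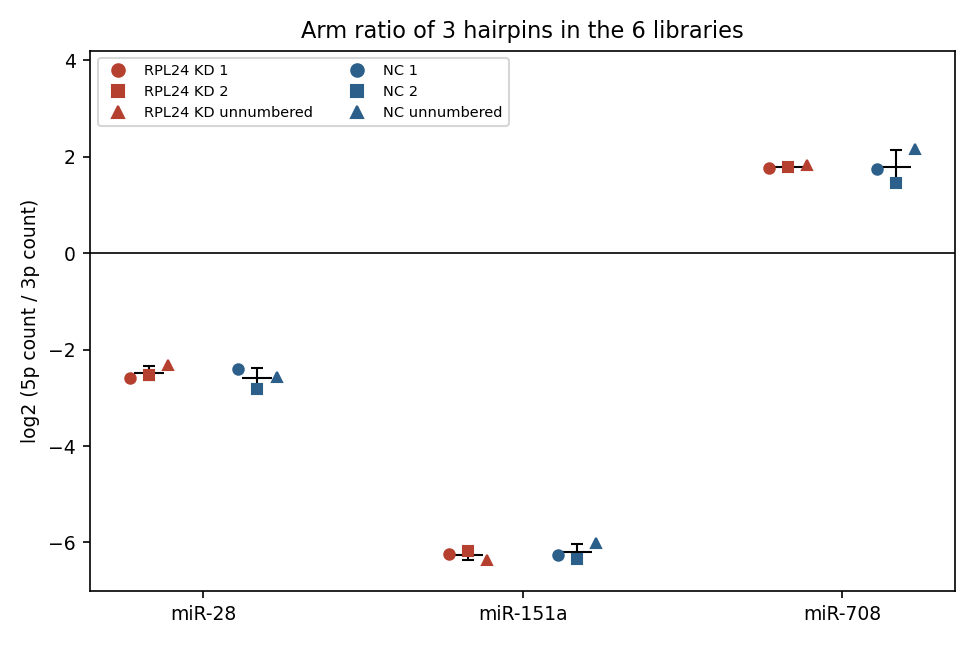
Log2 ratio of 5p to 3p counts of miR-28, miR-151a and miR-708 in each library. Points are libraries, horizontal bars are group means and error bars are SD; values below 0, as for miR-28 and miR-151a, mark more 3p than 5p counts, and the 2 groups overlap for each hairpin.

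Other miRs for which a LINE2 origin has been described were read beside the family. Of the 12 names of that list (both arms of miR-95, miR-374a, miR-374b, miR-493 and miR-545, with miR-421 and miR-325), 7 had reads and 6 passed the filter. Of these 6, 0 were DE by edgeR, against the 5.00% of all tested miRs. Their median log2 fold change was -0.02 and their median absolute log2 fold change 0.07. MiR-374a-3p averaged 472 ± 31.1 CPM (SD, n = 3) in RPL24 KD libraries, against 392 ± 49.2 CPM (SD, n = 3) with NC. Its groups did not overlap, as for 27.5% of all tested miRs. Its log2 fold change was 0.25, with an adjusted p of 0.199 by edgeR. For miR-421 the log2 fold change was -0.24, with an adjusted p of 0.200 by edgeR. These were the 2 of the 6 with an unadjusted p under 0.05 by edgeR, against 23.6% of all tested miRs, so little can be read from that count. The remaining 4 (miR-95-3p, miR-374a-5p, miR-374b-5p and miR-374b-3p) had log2 fold changes between -0.11 and 0.0026.

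MiR-342, whose hairpin is the neighbour of MIR151B in EVL, was also counted. MiR-342-3p averaged 331 ± 38.8 CPM (SD, n = 3) in RPL24 KD libraries, against 329 ± 6.68 CPM (SD, n = 3) with NC. Its log2 fold change was 0.02, with an adjusted p of 0.967 by edgeR. MiR-342-5p had 11, 10 and 3 counts in the RPL24 KD libraries and 12, 11 and 12 in NC. In CPM its groups did not overlap (at most 20.06 after RPL24 KD, at least 20.94 in NC), as for 27.5% of the tested miRs. The log2 fold change was -0.58, with an adjusted p of 0.409 by edgeR. Its 95% interval, from -1.42 to 0.25, was wide at these counts. MiR-342-3p was 20.1 times as high as the reads named miR-151b, whose hairpin MIR151B lies on the opposite strand. Since the sequence of miR-151b is contained in that of miR-151a-5p, these reads may not all come from MIR151B, which was not tested.

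**Figure D5:**
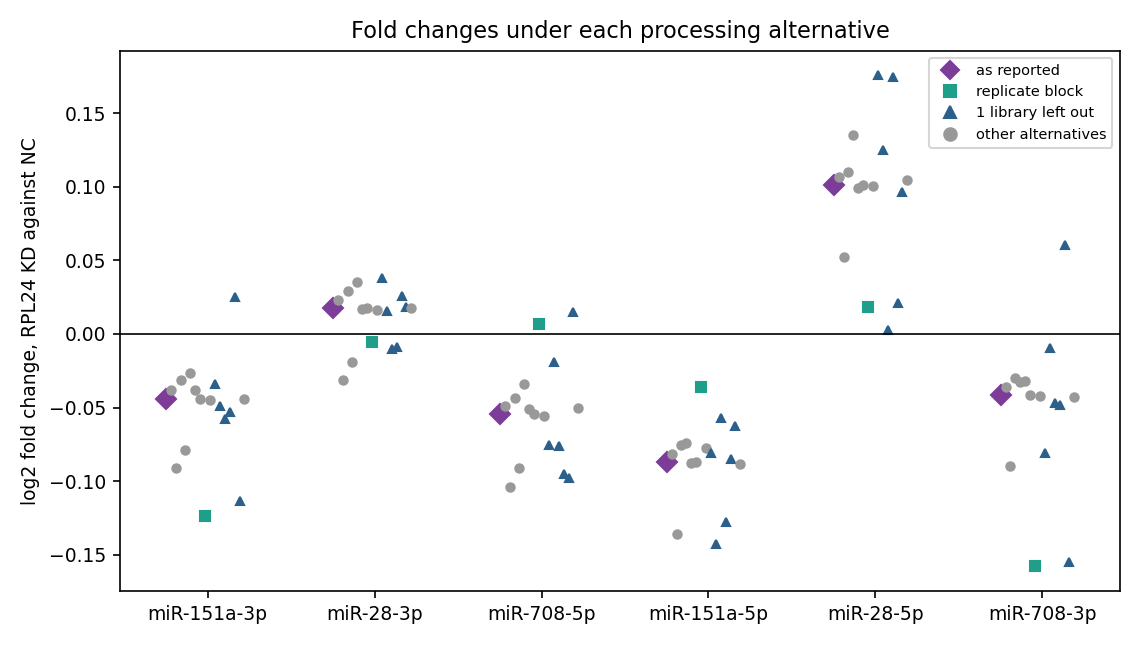
Log2 fold change (RPL24 KD minus NC) for the 6 tested members as reported (diamonds), with the replicate block (squares), with 1 library left out (triangles) and under the other alternatives (circles). The values stay within 0.18 of 0, and 0 of the 93 values of the alternatives were DE.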

How the data were processed

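The data were small RNA libraries of HEK293T cells, 3 with RPL24 KD and 3 with NC. Reads had been inspected with FastQC (0.11.9 in the submitters' processing notes), cleaned with Flexbar and matched to miRBase 21 by miRExpress, and the authors deposited one table of counts without normalization. Their rule for a read matching more than 1 miR is not given in the sources used here. DESeq2 was named for their own comparison.

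The third library of each group has a number in the table that no label has, the same in both groups, and is called unnumbered. Its group was read from the prefix of its column name, which matches the titles of that group. Groups of the other libraries came from the labels. No column of counts was left out, and 0 rows lacked a miR name.

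The quasi-likelihood test of edgeR 4.0.16 (R 4.3.3, the non-legacy fit, TMM, filterByExpr with a minimum count of 10, Benjamini-Hochberg adjustment over 360 miRs) was the main test. SE and 95% intervals are those implied by its F statistic. DESeq2 1.42.0 and limma 3.58.1 were alternatives. Arm ratios were compared by an exact two-sided permutation test over the libraries. The tests were tested on simulated data, in which the planted changes were larger than the log2 fold change of any member here. Sequences were aligned with Biopython 1.88.

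All 7 members are named, with every tested miR of the lists, and the 3 miRs most alike in pattern to the most abundant member. The members and lists were chosen with earlier results of these data known.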

Additional observations from a re-analysis of the deposited data

How the results depend on the processing

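The number of DE members was 0 in each of 10 alternatives and in 6 further fits without 1 library. Of the 10, the replicate block uses only the 4 numbered libraries. The smallest adjusted p of a tested member was 0.0697 (miR-151a-3p with the replicate block, edgeR, log2 fold change -0.12). Unadjusted edgeR p was under 0.05 for 1 of 6 members with the replicate block and 1 without the unnumbered NC library. The same held for 89 and 86 of all 360 miRs. Of 93 log2 fold changes of members under alternatives, 84 kept their direction and 9 changed sign, all near 0. MiR-28-3p was -0.0052 with the replicate block, -0.031 with total counts, -0.019 when miRs averaging under 100 counts were dropped, and between -0.010 and 0.038 when 1 library was left out. MiR-708-5p was 0.0071 with the replicate block and between -0.098 and 0.015 when 1 library was left out. MiR-28-5p was 0.018 with the replicate block and 0.052 with total counts, where miR-151a-5p, at -0.14, was the member farthest from 0. Without 1 library, miR-28-5p ranged from 0.0027 to 0.18, miR-151a-5p from -0.14 to -0.057, miR-151a-3p from -0.11 to 0.025 and miR-708-3p from -0.15 to 0.060. The difference in arm ratio of miR-151a, -0.06, was 0.089 with the replicate block and lay between -0.12 and 0.036 when 1 library was left out. That of miR-708, 0.0028, was 0.17 with the replicate block, -0.16 without NC replicate 2 and 0.19 without the unnumbered NC library. That of miR-28, 0.12, was 0.051 with the replicate block, 0.0059 without NC replicate 2 and 0.21 without NC replicate 1. What caused these shifts was not tested. Deviations of same-numbered libraries had a correlation of -0.03 across the 360 tested miRs, and of -0.21 across the 166 averaging at least 100 counts. These values do not mark them as paired, but so few libraries cannot show that they were unpaired. Over all tested miRs the count of DE miRs, 18, was 57 with the replicate block, 31 without a filter, 34 with robust edgeR and 28 with total counts. It was 27 when miRs averaging under 100 counts were dropped (3 members then tested). DESeq2 gave 15 of the 293 miRs to which it assigned an adjusted p. The count was 17 with miR-151b added to miR-151a-5p, 21 with RLE size factors and 21 with limma-voom. Without 1 library it went from 0 to 36 (0 without RPL24 KD replicate 1, with 56 at an unadjusted p under 0.05). Legacy edgeR, added after seeing the data, gave 21. Depth limits miR-151b most.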

Other observations

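Of the tested miRs outside the family, those whose log2 CPM followed that of miR-151a-3p most closely over the 6 libraries were miR-340-3p (Pearson r = 0.97), miR-148a-5p (r = 0.95) and miR-6720-3p (r = 0.95). These values describe 6 libraries with common scaling and are given without a test. MiR-340-3p averaged 691 CPM, with a log2 fold change of -0.07 and an adjusted p of 0.711 by edgeR. MiR-148a-5p averaged 992 CPM, with -0.06 and an adjusted p of 0.76 by edgeR. MiR-6720-3p averaged 25.1 CPM, with -0.24 and an adjusted p of 0.745 by edgeR.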
